A study of Homo sapiens with 16 samples.

Results

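The immediate early genes are the first genes that a cell transcribes after a growth factor, stress or other stimulus, and 10 of them were followed here. They are FOS, FOSB, JUN, JUNB, JUND, EGR1, ATF3, IER2, IER3 and KLF6. They were taken by symbol from a table of read counts for 66023 genes, in which each of the 10 has 1 row. RNA-seq covered 16 samples of 6 lines derived from SW480, which is a widely used human line of colon adenocarcinoma cells. Parental (n = 2) was the unmodified SW480 line. shScrambled (n = 2) carried a lentiviral short hairpin RNA that targets no mammalian gene. shAjuba1 (n = 3) and shAjuba2 (n = 3) each carried a hairpin against AJUBA, a LIM domain protein of cell junctions and the Hippo pathway. The first hairpin targets the coding part of the transcript and the second a non-coding part. Ajuba OE (n = 3) carried a lentiviral AJUBA construct with a CMV promoter and FLAG and HA tags. Control (n = 3) carried that construct after removal of the AJUBA sequence. The 5 transduced lines were selected with puromycin and Parental was not, and the labels name no stimulus, so the levels are taken as those of growing cultures. Each condition was 1 line. The study speaks of technical replicates, so the p-values measure the spread between these samples only and say nothing of other transductions.

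AP-1 is a transcription factor made of a pair of proteins with leucine zippers, one of the Jun family (JUN, JUNB, JUND) with another of the Jun, Fos or ATF families. Growth factor signalling through ERK and the serum response factor switches on FOS and EGR1 within minutes, and the transcripts are short-lived, while JUN is a known target of the stress kinase JNK. AP-1 activity is known in colon cancer for driving genes of proliferation and invasion. ATF3 is a stress-induced family member that can repress transcription. EGR1 and KLF6 are zinc finger transcription factors, IER2 is a small nuclear protein, and IER3 is a regulator of cell survival.

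The 250 bases before the start of transcription are shown for 4 of the genes whose levels the comparisons below turn on. They were taken from RefSeq (GRCh38.p14), where 9 of the 10 genes had an entry. Capitals in the EGR1 sequence mark 2 CArG boxes, the element that the serum response factor binds, and CRE cores (TGACG on either strand). In FOS and FOSB they mark a CRE core and a TATA box (TATAAA), and in JUN a CRE core and the variant TGACATCA.

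EGR1: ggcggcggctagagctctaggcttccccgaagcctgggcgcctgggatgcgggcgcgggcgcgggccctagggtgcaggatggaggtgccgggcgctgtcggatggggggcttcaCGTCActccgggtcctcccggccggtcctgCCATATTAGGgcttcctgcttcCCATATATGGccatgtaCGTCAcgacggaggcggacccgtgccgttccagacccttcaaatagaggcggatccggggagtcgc
FOS: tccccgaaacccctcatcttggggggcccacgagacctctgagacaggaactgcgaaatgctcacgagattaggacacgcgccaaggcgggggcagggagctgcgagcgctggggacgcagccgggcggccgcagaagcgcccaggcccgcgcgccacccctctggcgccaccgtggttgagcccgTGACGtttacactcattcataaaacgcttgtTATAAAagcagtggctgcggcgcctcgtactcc
FOSB: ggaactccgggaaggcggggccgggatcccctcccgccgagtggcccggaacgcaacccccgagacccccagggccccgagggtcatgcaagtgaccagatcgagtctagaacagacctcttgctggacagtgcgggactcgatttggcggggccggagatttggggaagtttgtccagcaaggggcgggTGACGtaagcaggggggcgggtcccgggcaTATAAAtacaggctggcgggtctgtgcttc
JUN: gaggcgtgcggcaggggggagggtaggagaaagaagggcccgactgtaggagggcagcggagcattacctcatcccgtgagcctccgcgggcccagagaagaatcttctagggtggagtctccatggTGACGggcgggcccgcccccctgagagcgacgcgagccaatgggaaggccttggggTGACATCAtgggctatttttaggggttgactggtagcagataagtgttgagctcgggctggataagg

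These stretches lie at chr5:138465229-138465478 on the plus strand (EGR1), chr14:75278578-75278827 on the plus strand (FOS), chr19:45467746-45467995 on the plus strand (FOSB) and chr1:58784048-58784297 on the minus strand (JUN). Letters were searched on both strands in 35116 promoters of the same length. A CArG box was in 1.16% of all promoters and in 1 of the 9 member promoters, EGR1, at -105 to -96 and -83 to -74 from the start. Only 250 bases were searched, so a box farther upstream, in FOS or any other member, would not be seen. A CRE core was in 21.2% of all promoters and in 7 of 9 (FOS, FOSB, JUN, JUNB, JUND, EGR1 and IER2), and it lay at -64 to -60 in FOS and -60 to -56 in FOSB. The full CRE, TGACGTCA, which contains that core, was in 1.65% of promoters and in JUND alone of the 9. TGACATCA was in 2.37% of promoters and in 3 of 9, JUN, ATF3 and KLF6. A TATA box was in 10.7% of promoters and in 4 of 9, FOS, FOSB, JUNB and ATF3, at -33 to -28 in FOS, -30 to -25 in FOSB, -31 to -26 in JUNB and -230 to -225 in ATF3. The letters of an EGR site (GCGNGGGCG with G or T at N) were in 5.37% of promoters and in KLF6. The AP-1 site TGACTCA was in 4.2% of promoters and in 0 of 9. A match of letters is a description and no evidence of binding.

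The targeted gene lay in the direction that the labels give. AJUBA was at 90.2 ± 2.00 RPM (counts per 1000000 counts of the sample, mean ± SD) in Parental and 82.5 ± 1.26 in shScrambled (n = 2 each), 50.1 ± 3.12 in shAjuba1, 62.0 ± 5.93 in shAjuba2, 93.2 ± 6.34 for Control and 526 ± 56.1 for Ajuba OE (n = 3 each), and neither knockdown line overlapped shScrambled. The log2 fold change was -0.73 ± 0.08 in shAjuba1 (adjusted p = 2.19e-05 in edgeR's quasi-likelihood test) and -0.46 ± 0.13 in shAjuba2, which missed the threshold of 0.05 (adjusted p = 0.0773). Total counts were 30132396 to 69684675 per sample. Of 7 markers of colonic epithelium 6 had a median above 1 RPM, led by KRT8 and KRT18, and KRT20 stayed at or below 0.641 RPM. The summed epithelial markers ranged from 2708 to 6369 RPM. Those of fibroblasts ranged from 6.21 to 37.6 RPM (2 of 6 above 1 RPM), of blood cells from 2.18 to 6.82 (2 of 5) and of endothelium from 2.24 to 5.41 (1 of 4), with PTPRC and CDH5 at or near 0. Mitochondrial genes took 9.66% to 21.2% of counts, and replicate 2 was the highest of its line in 5 of the 6 lines, all but Parental, with 21.2% for shAjuba2 and Ajuba OE and 18.5% for Control.

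Per length of exon, IER3 was the most abundant of the 10 transcripts and ATF3 the least. The mean over all 16 samples was 117 RPM per kb of exon for IER3, 32.1 for EGR1, 15.6 for KLF6, 14.5 for FOS, 13.9 for IER2, 11.0 for JUN, 10.4 for JUND, 7.29 for JUNB, 1.80 for FOSB and 1.58 for ATF3. FOS and JUN are the classic pair of AP-1, and FOSB lay well below both. The lowest and the highest sample of IER3 were at 76.9 and 177 RPM per kb, and the highest value of any other member in a sample was 53.2, for EGR1.

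**Figure D1:**
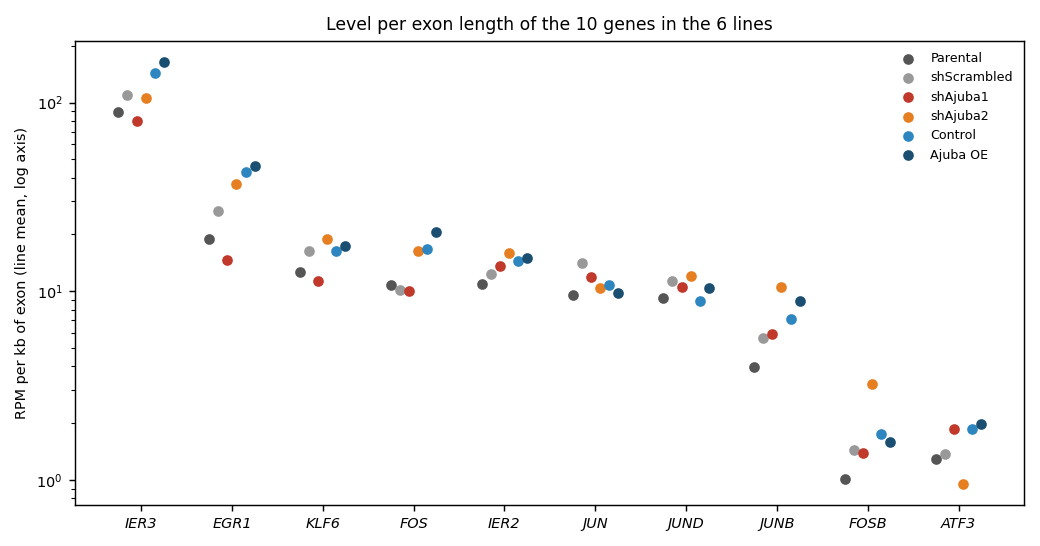
Mean RPM per kb of exon (log axis) of the 10 genes in each of the 6 lines; points are line means (n = 2 or 3). IER3 lies on top in all 6 lines, and FOSB and ATF3 lie lowest, with shAjuba2 the highest line for FOSB and the lowest for ATF3.

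Of the Fos family, FOS (ENSG00000170345, chr14:75278826-75282230) encodes the founding partner of JUN in AP-1. Its levels were 34.7 and 33.7 RPM in Parental, 29.2 and 35.3 in shScrambled, 30.9, 30.2 and 34.7 in shAjuba1, 50.3, 53.8 and 52.3 in shAjuba2, 60.4, 49.3 and 50.0 for Control and 58.5, 66.5 and 71.0 for Ajuba OE. The lines formed 2 sets that did not overlap, with Parental, shScrambled and shAjuba1 between 29.2 and 35.3 RPM and the other 3 lines between 49.3 and 71.0. Within each set the neighbouring lines overlapped. FOSB (ENSG00000125740, chr19:45467995-45475179) encodes a close relative with a like zipper. It stood at 6.11 and 5.17 RPM in Parental, 7.13 and 8.82 in shScrambled, 7.77, 6.90 and 8.53 in shAjuba1, 15.4, 21.7 and 16.7 in shAjuba2, 8.42, 11.9 and 8.74 for Control and 10.3, 7.88 and 8.40 for Ajuba OE. shAjuba2 lay above every other sample, Parental lay below every other sample, and the 4 lines between overlapped their neighbours.

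Of the Jun family, JUN (ENSG00000177606, chr1:58776845-58784048) was at 33.0 and 36.3 RPM in Parental, 52.2 and 50.3 in shScrambled, 40.7, 41.8 and 46.4 in shAjuba1, 37.5, 32.0 and 42.9 in shAjuba2, 42.6, 38.0 and 37.2 for Control and 32.4, 36.0 and 37.8 for Ajuba OE. Both shScrambled samples were above all 14 others, and the other 5 lines overlapped their neighbours in the order of means. JUNB (ENSG00000171223, chr19:12791486-12793315), which can pair with FOS and often acts against JUN, stood at 6.56 and 7.89 RPM in Parental, 9.55 and 11.2 in shScrambled, 10.4, 10.2 and 12.0 in shAjuba1, 15.0, 18.2 and 24.9 in shAjuba2, 12.6, 13.0 and 13.4 for Control and 16.1, 16.4 and 16.1 for Ajuba OE. Parental was lowest without overlap, shAjuba2 and Ajuba OE were highest and overlapped each other, and the samples of shAjuba2 spread the widest. JUND (ENSG00000130522, chr19:18279694-18281622), the member least dependent on stimuli, was at 15.4 and 20.1 RPM in Parental, 21.1 and 22.5 in shScrambled, 19.1, 14.4 and 27.4 in shAjuba1, 21.7, 18.4 and 29.2 in shAjuba2, 14.1, 18.1 and 19.5 for Control and 20.0, 22.7 and 17.7 for Ajuba OE. Every line overlapped its neighbours in JUND. Exons of JUNB share 259 bases with HOOK2 on the opposite strand, which had 1230 to 4473 counts per sample. The libraries kept the strand, but the strand option of the counting is not given in the sources used here, so reads of the shared bases cannot be assigned for certain.

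ATF3 (ENSG00000162772, chr1:212565334-212620777), the stress-induced partner that can form repressive dimers, stood at 4.61 and 5.71 RPM in Parental, 5.27 and 5.70 in shScrambled, 6.57, 7.37 and 8.31 in shAjuba1, 2.56, 3.42 and 5.47 in shAjuba2, 8.01, 6.85 and 7.47 for Control and 9.63, 6.58 and 7.54 for Ajuba OE. The lines again formed 2 sets. shAjuba2, Parental and shScrambled lay at or below 5.71 RPM, and shAjuba1, Control and Ajuba OE at or above 6.57.

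EGR1 (ENSG00000120738, chr5:138465479-138469303), a zinc finger factor best known as a readout of ERK signalling, was at 59.7 and 58.7 RPM in Parental, 76.6 and 89.9 in shScrambled, 43.6, 43.5 and 51.5 in shAjuba1, 109, 116 and 123 in shAjuba2, 167, 113 and 122 for Control and 127, 143 and 166 for Ajuba OE. shAjuba1, Parental and shScrambled followed each other in steps without overlap, and shAjuba2, Control and Ajuba OE lay above them and overlapped their neighbours. KLF6 (ENSG00000067082, chr10:3775996-3785281), also known as a tumour suppressor, stood at 78.2 and 76.6 RPM in Parental, 99.4 and 102 in shScrambled, 68.7, 72.8 and 66.5 in shAjuba1, 105, 131 and 114 in shAjuba2, 109, 96.6 and 93.8 for Control and 112, 91.9 and 117 for Ajuba OE. shAjuba1 was the lowest line and Parental the next, without overlap between them, and the other 4 lines lay above both.

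IER2 (ENSG00000160888, chr19:13150411-13154911), the small nuclear protein, was at 34.1 and 33.2 RPM in Parental, 35.4 and 40.2 in shScrambled, 40.2, 39.9 and 46.2 in shAjuba1, 49.8, 47.6 and 49.3 in shAjuba2, 45.1, 46.0 and 42.4 for Control and 45.2, 47.4 and 45.2 for Ajuba OE. It had the narrowest range of line means but for JUND, with Parental the lowest and shAjuba2 the highest, and neither overlapped its neighbour. IER3 (ENSG00000137331, chr6:30743199-30744548), the regulator of survival, stood at 117 and 124 RPM in Parental, 139 and 156 in shScrambled, 111, 107 and 104 in shAjuba1, 148, 119 and 159.5 in shAjuba2, 207, 181 and 192 for Control and 236, 191 and 239 for Ajuba OE. Control and Ajuba OE lay above the other 4 lines, and shAjuba1 lay below them all. Exons of IER3 share 440 bases with IER3-AS1 and 85 with HCG20, and those of IER2 share 946 and 662 bases with 2 long non-coding RNAs, all on the opposite strand. IER3-AS1 and HCG20 had at most 119 and 103 counts in a sample.

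**Figure D2:**
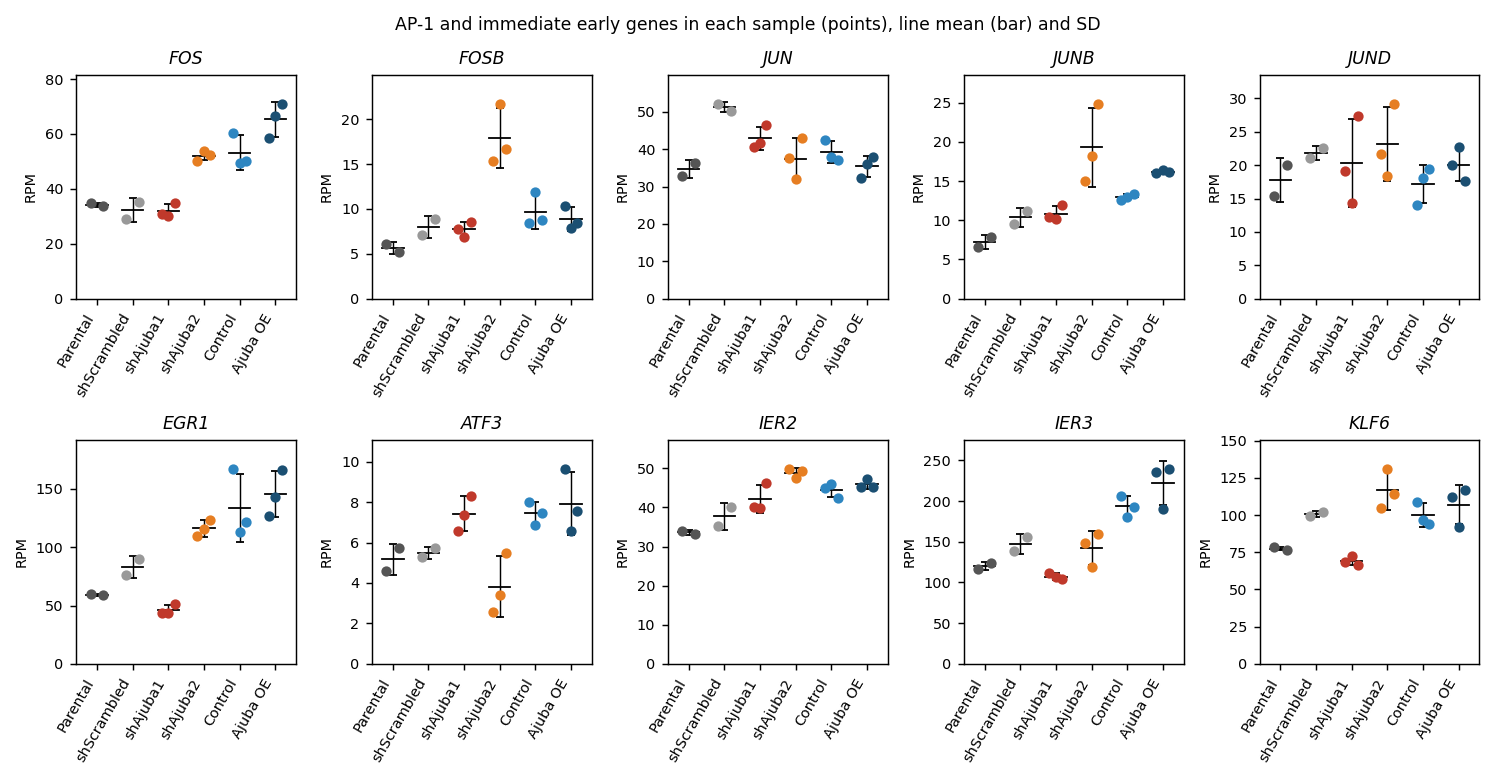
RPM of each of the 10 genes in every sample (points, linear axes from 0), with the mean of the line (bar) and its SD (whiskers). FOS falls into a lower set of 3 lines up to 35.3 RPM and a higher set from 49.3, FOSB is highest in shAjuba2, and JUN is highest in shScrambled.

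Among the 6 lines 9 of the 10 genes differed in edgeR's F test over all samples, where 45.7% of 23597 genes tested did. Adjusted p was 1.44e-06 for EGR1, 4.62e-06 for FOS and 7.07e-06 for IER3, the 3 smallest, and 0.0160 for JUN, the largest of the 9. JUND did not pass (adjusted p = 0.540). Without shScrambled replicate 1, or without replicate 2, JUN did not pass. In bulk samples fewer cells that express a gene and less RNA per cell cannot be told apart.

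shAjuba1 was compared with shScrambled to ask what the knockdown with the coding-region hairpin changed. EGR1, IER3, KLF6 and JUN fell and ATF3 rose, while FOS, FOSB, JUNB, JUND and IER2 did not pass the test. EGR1 fell to 46.2 ± 4.58 from 83.3 ± 9.44 RPM (log2 fold change -0.87 ± 0.10, adjusted p = 2.31e-05 in edgeR), and KLF6 to 69.4 ± 3.19 from 101 ± 1.88 RPM (-0.55 ± 0.08, adjusted p = 1.91e-04). IER3 fell to 107 ± 3.85 from 148 ± 12.4 RPM (-0.47 ± 0.08, adjusted p = 6.28e-04). None of these 3 genes overlapped between the lines, nor did JUN or ATF3. The share of all genes without overlap was not computed. JUN was 1.21-fold lower (-0.27 ± 0.09, adjusted p = 0.0287) and ATF3 1.33-fold higher (0.41 ± 0.13, adjusted p = 0.0247). Of the 10 members 4 were thus called lower and 1 higher, 5 in all, where 20.2% of all genes were called lower, 18.2% higher and 38.4% in either direction. The median log2 fold change of the members was -0.09 and that of all genes tested -0.01. The log2 fold changes of the others were -0.03 ± 0.10 for FOS, -0.06 ± 0.13 for FOSB, 0.04 ± 0.12 for JUNB, -0.12 ± 0.19 for JUND and 0.14 ± 0.10 for IER2. The JUN call was lost without shAjuba1 replicate 1 or 2 (adjusted p = 0.157 and 0.0750 in edgeR). Without shScrambled replicate 1 or 2 the log2 fold change was -0.22 or -0.30 for JUN and 0.38 or 0.47 for ATF3. Neither call held there, and those of EGR1, IER3 and KLF6 did. In 1 fit of all 16 samples the same 3 were called, where 5467 of 23597 genes tested were. Several calls changed with the control. With Parental in its place, 5 members were called higher in shAjuba1 and 1 lower, where 8056 of 21150 genes tested were called in either direction. JUN was then higher (log2 fold change 0.28, adjusted p = 0.0326 in edgeR), as were FOSB (0.43), JUNB (0.55), ATF3 (0.48) and IER2 (0.29). EGR1 was still lower (-0.39, adjusted p = 0.00580), and IER3 (-0.19, adjusted p = 0.0673) and KLF6 (-0.19, adjusted p = 0.0867) did not pass.

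shAjuba2 was compared with the same 2 shScrambled samples to ask what the second hairpin changed, so that both comparisons share their control. FOSB and FOS rose, and 0 members were called lower in edgeR (1 at an unadjusted p under 0.05, 0 in DESeq2). FOSB rose to 17.9 ± 3.34 from 7.98 ± 1.2 RPM (log2 fold change 1.12 ± 0.21, adjusted p = 0.0201 in edgeR), and FOS to 52.1 ± 1.78 from 32.2 ± 4.31 RPM (0.65 ± 0.13, adjusted p = 0.0306). All 3 samples of shAjuba2 lay above both control samples for each of these genes. They did so too for JUNB, EGR1, IER2 and KLF6, which were not called. The share of all genes without overlap was not computed. The 2 members called higher stood against 3.19% of all genes called higher, 4.44% lower and 7.63% in either direction. JUNB (0.85 ± 0.23), EGR1 (0.43 ± 0.13), IER2 (0.32 ± 0.12) and JUN (-0.50 ± 0.14) had an unadjusted p under 0.05 and missed the adjusted threshold. The log2 fold changes of the other 4 were -0.57 ± 0.30 for ATF3, -0.10 ± 0.15 for IER3, 0.17 ± 0.14 for KLF6 and 0.03 ± 0.19 for JUND. The median log2 fold change was 0.25 over the members and -0.01 over all genes tested. The number called changed with single samples, as did that of all genes, 1713 of 22446 with all samples. In edgeR 0 members were called without shAjuba2 replicate 1, where 492 of 21993 genes tested were. Without shAjuba2 replicate 2 it was 6 members, where 4983 of 21969 genes were called. That sample had 21.2% mitochondrial counts. With mitochondrial genes left out 2 members were called (1728 of 22499 genes), and the part of this share was not tested further. Without shScrambled replicate 1 or 2, which leaves 1 control sample, neither the FOSB nor the FOS call held. The log2 fold change was then 0.98 or 1.28 for FOSB and 0.52 or 0.79 for FOS.

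The knockdown lines were then compared directly, to ask whether these genes differ between the hairpins. EGR1, FOSB, JUNB, KLF6 and FOS were lower in shAjuba1 and ATF3 was higher. The log2 fold change of shAjuba1 against shAjuba2 was -1.28 ± 0.11 for EGR1 (adjusted p = 1.14e-04 in edgeR), -1.17 ± 0.16 for FOSB (0.00126), -0.70 ± 0.12 for KLF6 (0.00385) and -0.66 ± 0.11 for FOS (0.00264). These 4 calls held without any 1 of the 6 samples. JUNB was at 10.9 ± 0.950 RPM in shAjuba1 and 19.3 ± 5.04 in shAjuba2 (log2 fold change -0.79 ± 0.18, adjusted p = 0.0153), and ATF3 at 7.42 ± 0.868 and 3.82 ± 1.50 RPM (1.00 ± 0.25, adjusted p = 0.0208). For each of the 6 genes the 3 samples of one line did not overlap the 3 of the other. The same held for IER2 and IER3, which were not called. The share of all genes without overlap was not computed. The 6 members called, 5 lower and 1 higher, stood against 10.1% of all genes lower, 9.47% higher and 19.6% in either direction. The JUNB call was lost without any 1 sample of shAjuba1 (adjusted p = 0.0665, 0.0660 and 0.0516 in edgeR), and the ATF3 call without shAjuba1 replicate 2 or 3 or shAjuba2 replicate 1 (0.0620, 0.0907 and 0.0612). IER3 (-0.36 ± 0.12), JUN (0.24 ± 0.13), IER2 (-0.17 ± 0.10) and JUND (-0.14 ± 0.23) did not pass, and IER3 passed without shAjuba2 replicate 2 (adjusted p = 0.00231). The median log2 fold change was -0.51 over the members and 0.00 over all genes tested.

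Ajuba OE was compared with Control to ask what more AJUBA changed. AJUBA itself rose 5.90-fold, and no member was called in edgeR, where 2.39% of all genes were called higher, 3.03% lower and 5.43% in either direction. JUNB and FOS had an unadjusted p under 0.05, 2 of the 10. DESeq2 called 1, JUNB, where it called 1763 of 21140 genes tested. JUNB was at 16.2 ± 0.193 RPM in Ajuba OE and 13.0 ± 0.406 in Control, without overlap (log2 fold change 0.39 ± 0.09, adjusted p = 0.0630 in edgeR). FOS was at 65.3 ± 6.32 and 53.2 ± 6.23 RPM, and the lowest Ajuba OE sample lay below the highest Control sample (0.36 ± 0.13, adjusted p = 0.187). The log2 fold changes were 0.29 ± 0.16 for JUND, 0.26 ± 0.11 for IER3, 0.19 ± 0.18 for EGR1, 0.16 ± 0.12 for KLF6, 0.15 ± 0.15 for ATF3, 0.11 ± 0.09 for IER2, -0.07 ± 0.16 for FOSB and -0.08 ± 0.11 for JUN. The median was 0.17 over the members and -0.01 over all genes tested. Against Parental, 6 members were called higher in Ajuba OE and 0 lower in edgeR (FOS, FOSB, JUNB, EGR1, IER2 and IER3). Of all genes tested there, 1538 of 21521 were called in either direction.

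The control lines were compared with Parental to describe where these genes stood in each of them. Each is 1 line, so vector, selection and line cannot be told apart. In shScrambled 7 of the 10 were higher and 0 lower in edgeR (0 lower at an unadjusted p under 0.05 and 0 in DESeq2, which called 6 higher), and of all genes 15% were called higher, 15.6% lower and 30.7% in either direction. JUN (log2 fold change 0.56 ± 0.08, adjusted p = 1.41e-05 in edgeR), EGR1 (0.49 ± 0.08, 9.25e-05), KLF6 (0.37 ± 0.08, 5.40e-04) and JUNB (0.52 ± 0.13, 0.00401) had the smallest p-values. IER3 (0.29 ± 0.08), FOSB (0.51 ± 0.14) and JUND (0.29 ± 0.11, adjusted p = 0.0454) also rose. IER2 (0.16 ± 0.09), ATF3 (0.08 ± 0.15) and FOS (-0.09 ± 0.09) did not pass. In 1 fit of all 16 samples JUN alone was called, where 1696 of 23597 genes tested were. Without shScrambled replicate 2 the calls of JUNB, FOSB, JUND and IER3 were lost. Their log2 fold changes were then 0.39, 0.34, 0.24 and 0.20. The JUND call was also lost without Parental replicate 1 or shScrambled replicate 1, the IER3 call without Parental replicate 1, and the FOSB call without Parental replicate 2. Mitochondrial genes took 15.4% and 17.2% of counts in shScrambled against 10.4% and 9.93% in Parental. With those genes left out 7 members were still called, where 6522 of 21313 genes tested were.

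In Control against Parental 0 members were called in edgeR, where 0.0508% of all genes were called higher, 0.319% lower and 0.37% in either direction. An unadjusted p under 0.05 was seen for 8 of the 10, all higher in Control. DESeq2 called 5 (FOS, FOSB, JUNB, EGR1 and IER3), where it called 567 of 21644 genes tested. EGR1 was at 134 ± 29.0 RPM in Control and 59.2 ± 0.751 in Parental (log2 fold change 1.19 ± 0.18, adjusted p = 0.0507 in edgeR). JUNB (0.85 ± 0.13, 0.0507), FOSB (0.80 ± 0.19, 0.122), IER3 (0.70 ± 0.11, 0.0601) and FOS (0.65 ± 0.13, 0.0907) followed. ATF3 (0.53 ± 0.15), IER2 (0.41 ± 0.10) and KLF6 (0.38 ± 0.11) were the other 3, and JUN (0.19 ± 0.12) and JUND (-0.03 ± 0.18) made up the 10. Control replicate 2 had 18.5% mitochondrial counts, against 12.4% and 14.1% in the other 2 samples. Without it 8 members were called in edgeR, where 985 of 20838 genes tested were. Without Control replicate 1 EGR1 alone was called, where 42 of 21550 genes were. With mitochondrial genes left out 0 members were called (99 of 21609 genes), and the part of the mitochondrial share was not tested further. The median log2 fold change of the members was 0.59 in Control and 0.33 in shScrambled, where the medians of all genes tested were 0.04 and 0.03. These comparisons share the Parental samples.

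**Figure D3:**
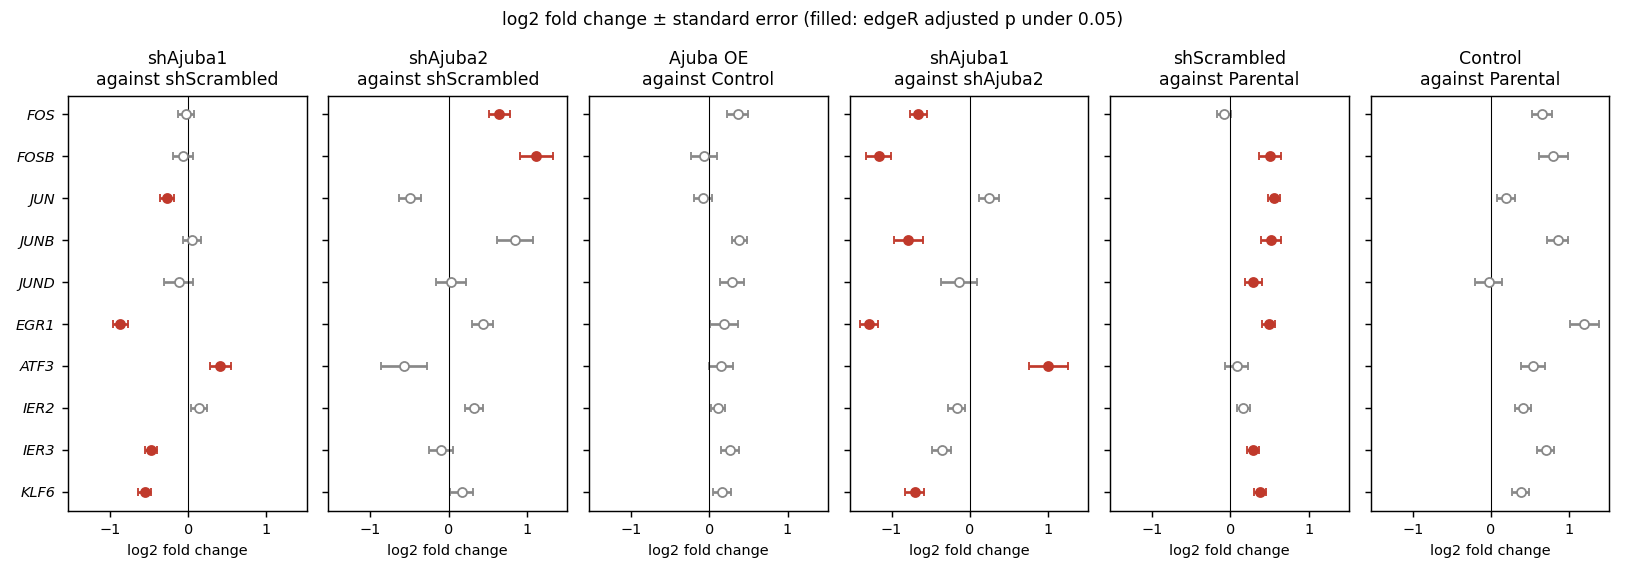
log2 fold change (points) ± standard error (bars) of the 10 genes in the 6 comparisons; filled red points passed edgeR's adjusted p of 0.05. In shAjuba1 against shScrambled 5 genes are filled and in shAjuba2 against shScrambled FOS and FOSB, while Control against Parental has none filled although EGR1 reaches 1.19.

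Other genes of these pathways were counted from lists written by hand with earlier results known, and every listed gene was in the table. The further AP-1 family genes are FOSL1, FOSL2, BATF, BATF2, BATF3, JDP2, ATF2 and ATF7. Of these 8, 3 were called higher and 1 lower in shAjuba1 against shScrambled, beside 18.2% and 20.2% of all genes. BATF2 was at a log2 fold change of 1.16 ± 0.22, FOSL1 at 0.32 ± 0.08 and ATF7 at -0.34 ± 0.09. In shAjuba2 0 of the 8 were called in edgeR, beside 7.63% of all genes. Of the 8, 0 had an unadjusted p under 0.05 and DESeq2 called 0. In Ajuba OE 1 was called, beside 5.43% of all genes. It was FOSL2, the Fos relative also known as FRA2, at -0.51 ± 0.09.

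Of 28 other immediate early genes, 18 rose and 3 fell in shAjuba1, and EGR1, IER3, KLF6 and JUN were called lower there. The list had a median log2 fold change of 0.48, beside -0.01 over all genes tested, of which 18.2% were called higher and 20.2% lower. RHOB, a small GTPase (1.70 ± 0.09), TNFAIP3, an inhibitor of NF-kB (2.02 ± 0.14), and DUSP5, a phosphatase that acts on ERK (0.81 ± 0.09), had the smallest p-values. RHOB was at 303 RPM in shAjuba1, 92.5 in shScrambled and 248 in Parental. It was called lower in shScrambled against Parental (-1.43 ± 0.08), so its rise depends on the control. In shAjuba2 5 rose and 0 fell in edgeR, beside 3.19% and 4.44% of all genes. At an unadjusted p under 0.05 it was 14 higher and 2 lower, and 6 and 0 in DESeq2. Among the 5 were ARC (1.13 ± 0.20), IER5L (1.16 ± 0.22) and the kinase SGK1 (0.78 ± 0.16). In Ajuba OE 2 were higher and 2 lower, beside 2.39% and 3.03% of all genes. TNFAIP3 was at 0.97 ± 0.13, SOCS3 at -0.68 ± 0.13 and PPP1R15A at -0.45 ± 0.09. The counts were 6 higher and 5 lower in shAjuba1 against shAjuba2, beside 9.47% and 10.1% of all genes. They were 7 and 1 in shScrambled against Parental, beside 15% and 15.6%. In Control against Parental they were 1 and 0, beside 0.0508% and 0.319% (15 and 0 at an unadjusted p under 0.05, 4 and 0 in DESeq2).

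Of 26 regulators upstream of the immediate early genes, such as the ERK and JNK kinases and the serum response factor with its partners, 7 rose and 7 fell in shAjuba1, where 18.2% of all genes were called higher and 20.2% lower, and the median log2 fold change was 0.02 over the list and -0.01 over all genes tested. MAP2K4, a kinase that activates JNK, was at a log2 fold change of -0.82 ± 0.09, MAPK8, which is JNK1, at -0.56 ± 0.09 and MRTFB at -0.45 ± 0.09. In shAjuba2 1 rose and 2 fell, beside 3.19% and 4.44% of all genes, with MAP2K4 at -0.65 ± 0.13, FBXW7, which targets JUN for degradation, at 0.64 ± 0.13 and ELK3 at -0.56 ± 0.13. ELK3 was at 75.6 RPM in shAjuba2 and 107 in shScrambled, but at 71.6 in Parental. In Ajuba OE 0 of 26 were called in edgeR, beside 5.43% of all genes, and 0 in DESeq2. An unadjusted p under 0.05 was seen for 2, 1 in each direction.

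Of 24 genes known as AP-1 targets, 14 to 17 passed the filter on low counts, so that the count that follows covers only those that passed. Of the 15 tested in shAjuba1 5 rose and 5 fell, beside 18.2% and 20.2% of all genes. They were led by MMP9 (3.38 ± 0.24), PLAU (-1.22 ± 0.10) and TIMP1 (-0.89 ± 0.08), which act on the extracellular matrix. MMP9 was at 4.41 RPM in shAjuba1 and 0.430 in shScrambled, a low level. In shAjuba2 PLAU (-1.13 ± 0.19) was called lower and VEGFA (0.73 ± 0.18) higher. PLAU was at 8.57 RPM in shAjuba1, 9.31 in shAjuba2 and 19.8 in shScrambled, but at 4.67 in Parental, below both knockdown lines. Its log2 fold change in shScrambled against Parental was 2.08 ± 0.11. TIMP1 in shAjuba1, at 50.1 RPM, was below both shScrambled (92.2) and Parental (63.2). In Ajuba OE MMP9 (1.97 ± 0.31) was called higher, at 0.815 RPM against 0.216 in Control, so that both levels are low. Of 12 heat shock genes, a sign of cell stress, 1 rose and 2 fell in shAjuba1, beside 18.2% and 20.2% of all genes. In shAjuba2 1 fell, beside 4.44% of all genes. In Ajuba OE 0 were called in edgeR, beside 5.43% (2 higher at an unadjusted p under 0.05, 1 in DESeq2). In shScrambled against Parental, where 7 of the 10 members rose (1, JUN, in the fit of all 16 samples), 7 heat shock genes fell and 1 rose, beside 15.6% of all genes called lower and 15% higher. The part of cell stress in the members' levels was not tested.

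Between replicates of a line the 10 genes varied to different degrees. The pooled SD of log2 CPM (counts scaled by TMM, per 1000000) within lines was 0.0768 for IER2, the lowest, and 0.125 for JUN, 0.132 for IER3, 0.134 for KLF6 and 0.134 for FOS. It was 0.189 for EGR1, 0.194 for JUNB and 0.225 for FOSB, and 0.297 for ATF3 and 0.298 for JUND, the highest. The median of the members was 0.162, beside 0.249 over all genes tested and 0.152 over the 11266 genes at or above the mean level of the lowest member. For JUND the SD of the 6 line means was 0.155, less than its spread between replicates, and for the other 9 genes the line means spread more than the replicates. The GC content of JUND exons is 69.9%, the highest of the 10.

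Within lines FOS and EGR1 moved together. The correlation of their deviations from the line means over the 16 samples was r = 0.94 (rho = 0.96), and 0.91 without the 2 samples farthest from the median of FOS. The FOS deviations had r = 0.63 with IER2, and 0.66 without the same 2 samples, Control replicate 1 and Ajuba OE replicate 1. With JUN r was 0.42, and 0.18 without them. With FOSB, its own relative, it was 0.05, and 0.39 without them, so that the order of JUN and FOSB changed when they were left out. JUNB and ATF3 had r = 0.83 (rho = 0.59), and 0.42 without shAjuba2 replicates 1 and 3. Of the 45 pairs of members 36 had a positive r and 9 a negative one, with a median of 0.29 and a lowest value of -0.60 for JUND and KLF6. These are descriptions, given without a p, and pairs share the depth and scaling of each library. In a line of 2 samples the deviations mirror each other, so the 16 are not independent. Samples were left out after the deviations were taken, so the line means still include them. The deviations of IER3 had r = -0.79 with the mitochondrial share of counts and 0.80 with the summed heat shock genes, FOS 0.22 and -0.19, and EGR1 -0.06 and 0.13. With the log2 total count of the library r was -0.39 for FOS and -0.49 for EGR1, both in the same direction. The part of the mitochondrial share in the IER3 levels and of depth in the relation of FOS and EGR1 was not tested.

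**Figure D4:**
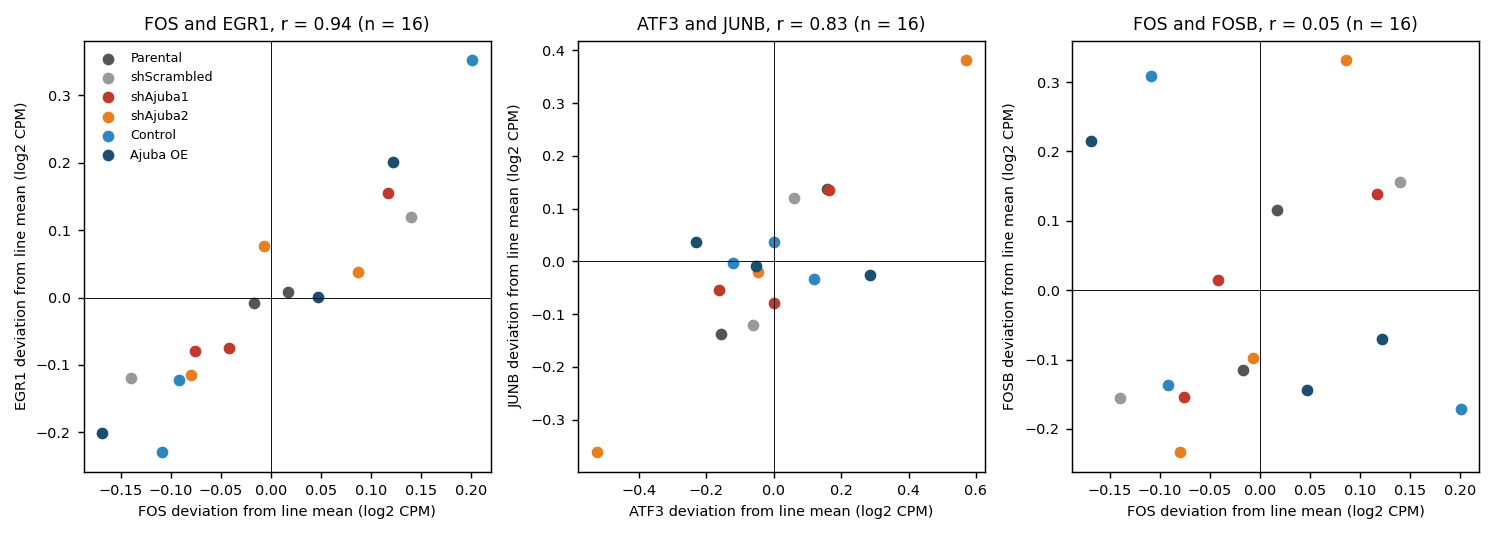
Deviation of each sample from the mean of its line (log2 CPM) for 3 pairs of genes, coloured by line (n = 16). FOS and EGR1 lie along a line (r = 0.94). JUNB and ATF3 have r = 0.83, and 0.42 without 2 samples of shAjuba2. FOS and FOSB have r = 0.05 with all samples and 0.39 without Control replicate 1 and Ajuba OE replicate 1. Line means include the samples left out.

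Across the lines the mean of the 10 genes, each put on a scale of SDs over the 16 samples, was lowest in Parental (-1.14 and -0.87) and, by the mean of the line, highest in Ajuba OE (0.70, 0.70 and 0.81), where shAjuba2 replicate 3 (0.75) lay above 2 of the 3 samples. The genes whose log2 CPM was most like FOS over the 16 samples, among 19490 genes, were GPAA1P2 (r = 0.92), CECR7 (0.92) and SOWAHC (0.90). For EGR1 they were PHF11 (0.91), PAN3 (0.91) and HMGB1P24 (0.90), and for JUN GSN-AS1, THSD1 and SPDYE2B (0.80 each). EPB41L4A-DT (0.92), PARD6B (0.85) and VGLL4 (0.85) were most like the mean of the 10. The samples fall into 6 lines, so these values hold differences between lines as well as within them.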

How the data were processed

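Polyadenylated RNA of 16 samples was sequenced as stranded paired-end libraries. The authors aligned the reads to hg38 with HISAT2, counted read pairs on exons with featureCounts, and deposited raw counts per Ensembl gene. The strand option, the annotation release and the tool versions are not given in the sources used here. Symbols, positions and exon lengths came from GENCODE (hg38), where 56434 of 66023 identifiers were found, holding 99.8% of counts. All columns were mapped to samples by their titles.

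RPM was the count divided by the column total, times 1000000. Lines were compared with edgeR 4.0.16 in R 4.3.3 (filterByExpr, TMM, two-sided quasi-likelihood test on the samples of the lines compared, all genes), and adjusted p is Benjamini-Hochberg over all genes tested with a threshold of 0.05. The script was tested on simulated data. log2 CPM used a prior count of 2. Standard errors were derived from the fold change and its F statistic. Alternatives used DESeq2 1.42.0, other normalizations, filters and controls, and left-out samples. The model with all samples, the mitochondrial genes left out and the unadjusted counts are described where they bear on a result.

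The members and lists were chosen with earlier results of these data known. Genes named are the members, AJUBA, at most 3 of each list per study comparison (smallest adjusted p) and the 3 most like FOS, EGR1, JUN and the members' mean. Leaving mitochondrial genes out and the depth measures beside within-line deviations were added after seeing the data. Depth limits only the lowest counts. One gene of the list of AP-1 targets is not reported here, so that list's counts are given for shAjuba1 against shScrambled alone. Protein, cytometry and tumour data were not analysed here.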

Additional observations from a re-analysis of the deposited data

Results flagged for a closer look

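Between the knockdown lines 6 of the 10 genes differed in edgeR's direct test, in which the control that both lines share takes no part, and 19.6% of all genes did so. The log2 fold change of shAjuba1 against shAjuba2 was -1.28 for EGR1, -1.17 for FOSB, -0.79 for JUNB, -0.70 for KLF6, -0.66 for FOS and 1.00 for ATF3. The JUNB call was lost without any 1 sample of shAjuba1, and the ATF3 call without shAjuba1 replicate 2 or 3 or shAjuba2 replicate 1. AJUBA itself differed by -0.26 ± 0.12 between these lines (adjusted p = 0.141 in edgeR). The part of the remaining AJUBA level or of the hairpin sequence in these differences was not tested, and with 1 line per hairpin the hairpin and the line cannot be told apart.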

How the results depend on the processing

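Of 60 fold changes of members (10 genes in 6 comparisons), 830 alternative values were computed. Direction and side of the threshold held in 705. With the same direction 38 lost the threshold and 59 gained it, and 28 changed sign. Of these 28, 3 passed in the new direction, all with Parental as the control. They were JUN in shAjuba1 (0.28), the 1 whose reported value had passed, FOSB in shAjuba1 (0.43, adjusted p = 0.0230 in edgeR) and FOSB in Ajuba OE (0.71, 0.0425). Each gene had 1 row, so summing rows by symbol was not run.

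The number of members called in shAjuba1 against shScrambled was 3 in 1 fit of all 16 samples, where 5467 of 23597 genes tested were called. It was 6 with Parental as the control (5 higher and 1 lower, 8056 of 21150 genes). With 1 shAjuba1 sample left out it was 4 to 6 (6504 of 20738 to 9695 of 21371 genes). In shAjuba2 it was 4 with no filter beyond 1 count (3210 of 40911) and 5 in the fit of all samples (3672 of 23597). With Parental as the control it was 5 (1800 of 22111). With 1 shAjuba2 sample left out it was 0 to 6 (492 of 21993 to 4983 of 21969). In Ajuba OE it was 1 in DESeq2 (1763 of 21140 genes) and 1 in the fit of all samples (2386 of 23597). With Parental as the control it was 6 (1538 of 21521). In shScrambled against Parental it was 1 in the fit of all samples (1696 of 23597 genes). In Control against Parental it was 5 with no filter (1947 of 40477 genes) and 5 in DESeq2 (567 of 21644). In the fit of all samples it was 5 (530 of 23597). With 1 Control sample left out it was 0 to 8 (18 of 21252 to 985 of 20838). In shAjuba1 against shAjuba2 it was 4 to 7 with 1 sample left out. It was 4 without shAjuba1 replicate 2 (2415 of 22286 genes) or 3 (2428 of 22305), and 7 without shAjuba2 replicate 2 (5961 of 22142). A line left with 1 sample is assumed to vary like the other.

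With the replicate number as a block, 6 members were called in shAjuba1 (8863 of 21082 genes tested) and 6 in shAjuba2 (5377 of 22446). In Ajuba OE it was 3 (5140 of 21140), and in shAjuba1 against shAjuba2 6 (2937 of 21600). In shScrambled it was 7 (5411 of 21289) and in Control 1 (318 of 21644). Same-numbered samples had correlations of deviations between -0.13 and 0.50, not every pair over 0.1, so the numbers were not taken to pair the samples. Under the block JUNB in shAjuba1 turned to -0.0112 and JUND in shAjuba2 to -0.17.

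The other 25 sign changes did not pass in either direction. With Parental as the control JUND in shAjuba1 was 0.16, JUN and IER3 in shAjuba2 0.0517 and 0.18, and JUN in Ajuba OE 0.0826. With replicate 2 of Control and of Ajuba OE left out, FOSB in Ajuba OE was 0.18. With 1 sample left out, log2 fold changes in shAjuba1 ranged from -0.14 to 0.11 for FOS, -0.18 to 0.0949 for FOSB, -0.0442 to 0.16 for JUNB and -0.37 to 0.0663 for JUND. They ranged from -0.15 to 0.16 for JUND in shAjuba2, -0.16 to 0.11 for FOSB and -0.13 to 0.00165 for JUN in Ajuba OE, -0.41 to 0.0579 for JUND in shAjuba1 against shAjuba2, -0.0682 to 0.25 for ATF3 and -0.24 to 0.0234 for FOS in shScrambled, and -0.24 to 0.17 for JUND in Control. The cause of these changes was not tested.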
